A study of Rattus norvegicus with 60 samples.

Results

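Gene expression in the amygdala of weanling rats was set against that in the prefrontal cortex at postnatal day 21 (P21), using all 20 P21 samples of a series of 60. The amygdala gave 10 arrays (5 HR and 5 LR) and the prefrontal cortex 10 arrays (5 HR and 5 LR), each from a male rat aged 21 days. HR and LR are 2 selectively bred lines on a Sprague-Dawley background, and no treatment is named for any group. Total RNA, labelled with the dye Cy3, was hybridised to 1-colour NimbleGen expression arrays. Tissue came from 300 µm frozen sections, with neighbouring 20 µm sections stained by cresyl violet as the anatomical guide. The labels' dissection protocol of the prefrontal samples names the amygdala, so the region of each sample was taken from its labels for brain region and source.

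The amygdala is a group of nuclei in the ventral forebrain that assigns emotional value to stimuli. Its basolateral nuclei hold glutamate projection neurons of a cortical kind, whereas the central and medial nuclei hold mostly GABA neurons that release peptides such as enkephalin and neurotensin. The prefrontal cortex is layered, with excitatory projection neurons whose identity rests on transcription factors such as Emx1 and Fezf2, and with GABA interneurons marked by parvalbumin, somatostatin and vasoactive intestinal peptide.

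The regions were deposited in separate tables that had been normalized separately. Each array was therefore put on a scale of its own, the percentile rank, which runs from 0 (dimmest) to 100 (brightest) over the 15828 transcript rows with values in both tables. A difference of 10 percentile points means that a row stood past 10% more of the rows on the array. Ranks compress differences among the brightest rows, so a log2 difference after quantile normalization of the 20 arrays is also given for some genes and is named as such. Amygdala arrays carried the numbers 31 to 40 and prefrontal arrays the numbers 1 to 10, so region, table and array batch cannot be told apart, and every p below measures only the spread between arrays. Whether the 10 arrays of a region are separate animals is given only as 5 male rats per line in the labels' protocol, so the spread may in part be technical.

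Ranks were more alike within the amygdala than within the prefrontal cortex. Spearman's rank correlation between pairs of arrays was 0.722 to 0.869 (median 0.789) within the amygdala and 0.588 to 0.823 (median 0.729) within the prefrontal cortex, against 0.519 to 0.799 (median 0.703) between the regions. Array 2, labelled HR prefrontal cortex, had a median correlation of 0.775 with the 5 HR amygdala arrays and of 0.687 with the other arrays of its own group. Its highest correlation in the other region, 0.799, was the highest of all 100 pairs between the regions. That value was with array 32, whose column name carries the same sample code. The labels do not say what the code marks, and the cause was not tested. Array 2 ranked like the amygdala for some genes below (Nts, Ttr and Folr1) and like the prefrontal cortex for others (Penk and Nr2f2). The count over all rows and the results of some genes and lists are also given without array 2. All others include it, and the counts of some lists change without it. Array 1, also HR prefrontal cortex, had the lowest correlations within its region (0.588 to 0.661). Array 36 was the least like its region among the amygdala arrays (0.722 to 0.762).

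**Figure D1:**
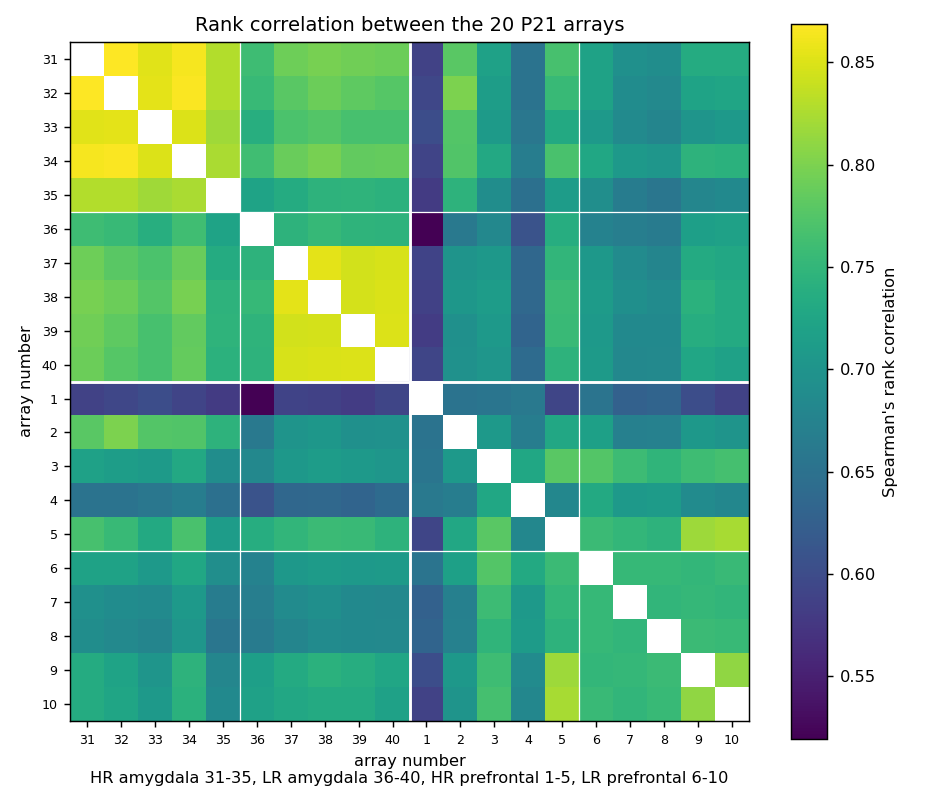
Spearman's rank correlation between each pair of the 20 P21 arrays over the shared rows, with the HR and LR amygdala arrays (31 to 40) before the HR and LR prefrontal arrays (1 to 10) on both axes; lighter cells are higher values and the diagonal is blank. The amygdala arrays form the brightest block, array 2 is lighter in the HR amygdala columns than in its own, and array 1 is dark throughout.

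Of the 15828 rows, 2726 (17.2%) differed between the amygdala and the prefrontal cortex at an adjusted p under 0.05 (limma with Benjamini-Hochberg adjustment). Of these, 1356 (8.57% of all rows) were higher in the amygdala and 1370 (8.66%) were lower. Without array 2 the count was 3176 (20.1%). When each array was ranked over all rows of its own table, 1041 rows were higher and 1714 lower, so the even split of directions depends on ranking over the shared rows. The 10 amygdala values lay wholly outside the 10 prefrontal values in 317 rows, with 200 higher (1.26% of all rows) and 117 lower (0.739%). Genes with a mean percentile of at least 50 in either region were called in 1891 of 7169 cases (26.4%), and genes below it in both regions in 553 of 7016 (7.88%). A gene can pass this filter through the region where it is higher alone, so part of the gap between the 2 shares is built in. The median absolute difference over all rows was 6.59 percentile points.

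Markers of the central and medial amygdala nuclei were called in both directions. Of 24 listed genes 19 were measured, and 10 of these did not pass the test. In the amygdala 6 were higher (Nts, Avp, Ecel1, Prkcd, Penk and Gal) and 3 lower (Zic1, Crh and Sst), against 8.57% and 8.66% of all rows. The median difference of the 19 genes was 3.47 percentile points, against 0.00695 over all rows. Nts encodes neurotensin, a peptide of central amygdala GABA neurons. It ranked at 87.0 to 90.5 (median 88.5) in the amygdala arrays, against 1.73 to 90.0 (median 34.9) in the prefrontal arrays. The highest prefrontal value was that of array 2, and the next highest was 63.6. The difference was 52.6 ± 8.79 percentile points (SE; adjusted p = 0.000707), and 58.2 without array 2 (adjusted p = 8.6e-05).

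Nts was shown with its promoter window because it was among the genes with the widest gap between regions, and Sst with its own because it lay on the opposite side. Sequences are RefSeq's, on the GRCr8 build, from 250 bases before the annotated transcription start to 30 bases after it, written 5′ to 3′ along the gene. The Nts window lies on chromosome 7 (chr7:39460859-39461138, minus strand) and the Sst window on chromosome 11 (chr11:90461296-90461575, plus strand). Capitals mark a match to the AP-1 motif TGAGTCA in Nts and to the cAMP response element TGACGTCA in Sst, searched on both strands.
Nts: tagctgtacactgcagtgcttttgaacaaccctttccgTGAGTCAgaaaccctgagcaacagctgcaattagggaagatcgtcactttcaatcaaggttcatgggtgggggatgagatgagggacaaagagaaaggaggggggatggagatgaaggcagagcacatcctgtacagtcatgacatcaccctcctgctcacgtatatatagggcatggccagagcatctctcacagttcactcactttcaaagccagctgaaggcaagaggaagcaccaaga
Sst: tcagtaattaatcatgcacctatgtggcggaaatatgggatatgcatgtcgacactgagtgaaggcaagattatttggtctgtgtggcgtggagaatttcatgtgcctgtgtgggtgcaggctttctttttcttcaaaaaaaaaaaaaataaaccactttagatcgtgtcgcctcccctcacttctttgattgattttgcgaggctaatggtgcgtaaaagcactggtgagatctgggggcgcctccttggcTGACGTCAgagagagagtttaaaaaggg
The AP-1 match begins 212 bases before the annotated start of Nts, whereas the match in Sst begins 2 bases after the annotated start of Sst. TGAGTCA or its reverse complement occurred in 4.63% of the 33469 promoter windows of 300 bases in the RefSeq table, and TGACGTCA in 1.83%. These matches describe the letters only.

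Penk encodes preproenkephalin, the opioid peptide precursor of many central amygdala and striatal neurons. It ranked at 97.9 to 98.7 (median 98.3) in the amygdala arrays, against 82.1 to 93.4 (median 90.9) in the prefrontal arrays, so the groups did not overlap. The rank difference was 8.63 ± 1.29 percentile points (adjusted p = 0.000295), and the quantile-normalized log2 difference was 3.47 ± 0.24. In bulk tissue, fewer cells of a type and less RNA per cell cannot be told apart for this gene or any below. Prkcd, which encodes protein kinase C delta and marks a class of central amygdala GABA neurons, ranked at 66.3 to 77.1 (median 72.0) in the amygdala, against 52.3 to 71.6 (median 61.1) in the prefrontal cortex. Its difference was 11.6 ± 1.85 percentile points (adjusted p = 0.000481).

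Ecel1, an endopeptidase-like enzyme of peptidergic neurons, was 25.3 ± 4.35 percentile points higher (adjusted p = 0.000887). Avp, the vasopressin precursor of medial amygdala and hypothalamic neurons, ranked at 60.7 to 80.9 (median 75.8) in the amygdala, against 11.9 to 75.4 (median 47.5) in the prefrontal cortex. The difference in Avp was 25.7 ± 4.76 percentile points (adjusted p = 0.00162). Both genes overlapped between the regions by some arrays. Gal, which encodes the peptide galanin, ranked at 93.3 to 96.2 (median 94.3) in the amygdala, against 89.0 to 97.8 (median 90.4) in the prefrontal cortex. Its highest prefrontal value came from array 2, and without that array all 9 prefrontal values (up to 91.5) lay below the amygdala arrays.

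Crh and Sst, 2 peptide genes of central amygdala neurons that cortical interneurons also express, were lower in the amygdala. Crh, which encodes corticotropin-releasing hormone, ranked at 43.5 to 79.3 (median 71.4) in the amygdala, against 71.9 to 85.9 (median 77.3) in the prefrontal cortex. The difference was -9.84 ± 2.91 percentile points (adjusted p = 0.0277), but it missed the threshold with array weights (adjusted p = 0.0568) and with all 60 arrays in the fit (adjusted p = 0.0503). Sst, the somatostatin gene, ranked at 95.1 to 96.7 (median 95.8) in the amygdala, against 94.0 to 99.7 (median 99) in the prefrontal cortex. Its lowest prefrontal value was that of array 2. The rank difference of Sst was -2.64 ± 0.838 percentile points (adjusted p = 0.0382), and -3.16 without array 2 (adjusted p = 0.00445). On the quantile-normalized log2 scale the difference of Sst was -1.65 ± 0.29.

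**Figure D2:**
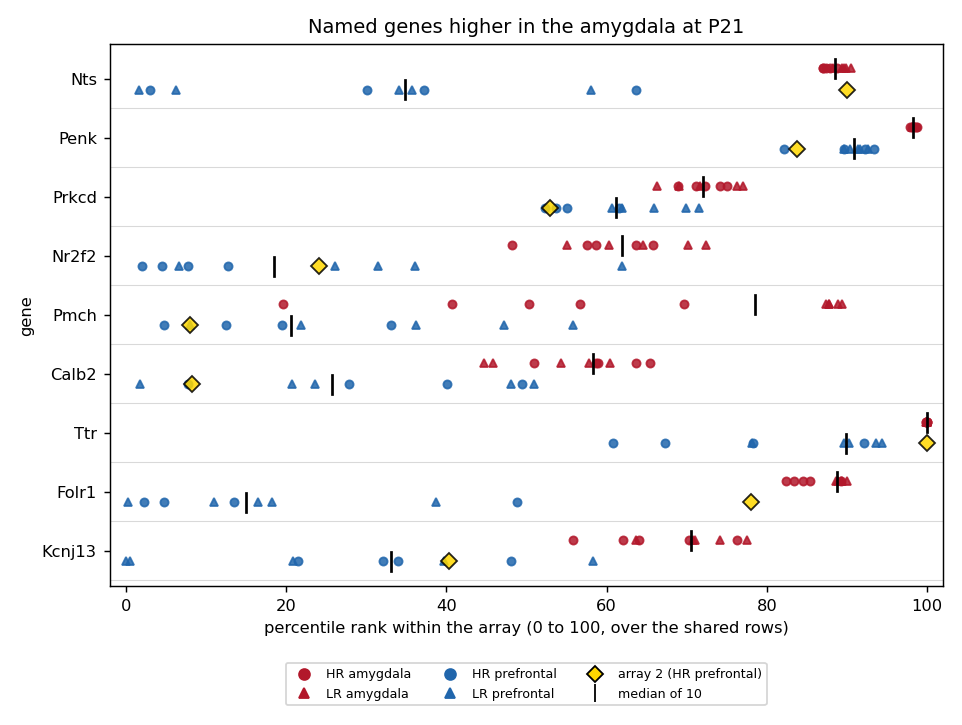
Percentile rank on each P21 array of 9 genes higher in the amygdala, with amygdala arrays in red above prefrontal arrays in blue for each gene, circles for HR, triangles for LR, a gold diamond for array 2 and a black tick for the median of 10. Penk does not overlap between regions, whereas array 2 lies among or near the amygdala arrays for Nts, Ttr and Folr1 but not for Penk, Calb2 or Pmch.

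For markers of the basolateral and cortical amygdala nuclei, 3 of 12 measured genes were called, against 17.2% of all rows. Of 21 listed genes 12 were measured, 2 were higher (Nr2f2 and Tmem163), 1 was lower (Otp) and 9 did not pass the test, with a median difference of 1.42 percentile points. Nr2f2 encodes COUP-TFII, a nuclear receptor of caudal ganglionic eminence and amygdala neurons. It ranked at 48.2 to 72.4 (median 62.0) in the amygdala, against 2.04 to 61.9 (median 18.5) in the prefrontal cortex. The difference was 40.3 ± 5.20 percentile points (adjusted p = 9.78e-05), and array 2, at 24.2, stood with the prefrontal arrays. Its relative Nr2f1 (COUP-TFI) differed by 10.5 ± 3.54 percentile points and did not pass the test (adjusted p = 0.0507), but passed without array 2 (adjusted p = 0.0312). Otp, a homeobox factor of medial amygdala and hypothalamic peptide neurons, differed by -23.9 ± 5.75 percentile points (adjusted p = 0.00881), and its other row gave -24.0 (adjusted p = 0.0255). Cck and Grp, peptide genes of basolateral neurons, ranked high in both regions and were not called (adjusted p of 0.297 and 0.813).

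Transcription factors of cortical projection neurons were lower in the amygdala where they were called. Of 20 listed factors 15 were measured, 5 were lower (among them Pou3f1, Emx1, Neurod2 and Fezf2), against 8.66% of all rows, none was higher and 10 did not pass the test. At an unadjusted p under 0.05 in limma, 6 were lower and 1 was higher. Their median difference was -7.52 percentile points. Emx1, a homeobox factor of the dorsal telencephalon, ranked at 22.1 to 73.3 (median 62.3) in the amygdala, against 62.8 to 80.4 (median 75.5) in the prefrontal cortex. The difference of Emx1 was -15.9 ± 4.4 percentile points (adjusted p = 0.0198, and 0.0624 with array weights). Pou3f1, a POU factor of upper and deep layer neurons, ranked at 13 to 60.8 (median 37.9) in the amygdala, against 56.5 to 83.2 (median 67.3) in the prefrontal cortex. Its difference was -29.3 ± 5.73 percentile points (adjusted p = 0.00239). Fezf2, which specifies subcerebral projection neurons, differed by -7.52 ± 2.30 percentile points (adjusted p = 0.0321). Neurod2, a bHLH factor of excitatory neurons, differed by -9.73 ± 2.75 percentile points (adjusted p = 0.0218), but its call was lost on the quantile-normalized log2 scale (adjusted p = 0.0816) and its sign turned in the LR arrays alone (6.62). Neurod6, a related factor, differed by -21.5 ± 9.16 percentile points and did not pass the test (adjusted p = 0.117).

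Markers of cortical layers did not share a direction. Of 24 listed genes 17 were measured, with 4 higher (Lamp5, Camk2a, Tmem163 and C1ql3), 1 lower (Slc17a7) and 12 not called. Over all rows 8.57% were higher and 8.66% lower. Slc17a7 encodes VGLUT1, the vesicular glutamate transporter of cortical and basolateral neurons. It ranked at 0.0948 to 40.6 (median 21.5) in the amygdala, against 3.08 to 72.1 (median 55) in the prefrontal cortex, a difference of -31.2 ± 7.97 percentile points (adjusted p = 0.0127). The row of Slc17a7 was dim, with a mean percentile of 34.1 over the 20 arrays. Without array 2 the calls on Camk2a (adjusted p = 0.0580) and Lamp5 (adjusted p = 0.0664) were lost. C1ql3, a synaptic organiser, ranked above 89 on every array of both regions and differed by 2.67 ± 0.868 percentile points (adjusted p = 0.0427).

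GABA neuron genes were called in both directions. Of 22 listed genes 20 were measured, with 3 higher (Crhbp, Calb2 and Dlx2), 4 lower (Vip, Reln, Pvalb and Sst) and 13 not called. Over all rows 8.57% were higher and 8.66% lower. Of the 20 genes 12 had a mean percentile of at least 50 in the higher region. In that range 13.7% of genes were higher and 12.7% lower. Pvalb, the parvalbumin gene of fast-spiking interneurons, ranked at 60.7 to 81.6 (median 76.8) in the amygdala, against 82.4 to 93.1 (median 88.4) in the prefrontal cortex. The groups did not overlap, and the difference was -12.9 ± 2.07 percentile points (adjusted p = 0.000516), or -1.88 ± 0.25 on the quantile-normalized log2 scale. With all 60 arrays in the fit the call on Pvalb was lost (adjusted p = 0.191).

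Cort, which encodes cortistatin, a peptide of cortical interneurons, ranked at 79.96 to 83.6 (median 81.8) in the amygdala, against 82.9 to 95.9 (median 93.1) in the prefrontal cortex. Its difference was -10.3 ± 1.28 percentile points (adjusted p = 8.23e-05). The lowest prefrontal value, 82.9, was that of array 2. Vip, the gene of vasoactive intestinal peptide, ranked at 21.1 to 60.6 (median 47) in the amygdala, against 39.9 to 82.1 (median 78.3) in the prefrontal cortex. The difference in Vip was -27.0 ± 6.03 percentile points (adjusted p = 0.00573), and array 2 again gave the lowest prefrontal value. Reln, which encodes the matrix protein reelin of layer 1 and interneurons, differed by -25.1 ± 5.87 percentile points (adjusted p = 0.00753).

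Calb2, the calretinin gene, ranked at 44.7 to 65.5 (median 58.3) in the amygdala, against 1.75 to 50.9 (median 25.8) in the prefrontal cortex, a difference of 28.2 ± 6.33 percentile points (adjusted p = 0.00592). Dlx2, a homeobox factor of subpallial GABA progenitors, differed by 24.9 ± 7.06 percentile points (adjusted p = 0.0225). Crhbp, which encodes a binding protein of corticotropin-releasing hormone, ranked at 71.3 to 79.6 (median 77.7) in the amygdala, against 8.68 to 75.9 (median 56.8) in the prefrontal cortex. Its difference was 29.5 ± 8.68 percentile points (adjusted p = 0.0271). The GABA-synthesising enzymes were not called, with an adjusted p of 0.926 for Gad1 and 0.422 for Gad2.

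**Figure D3:**
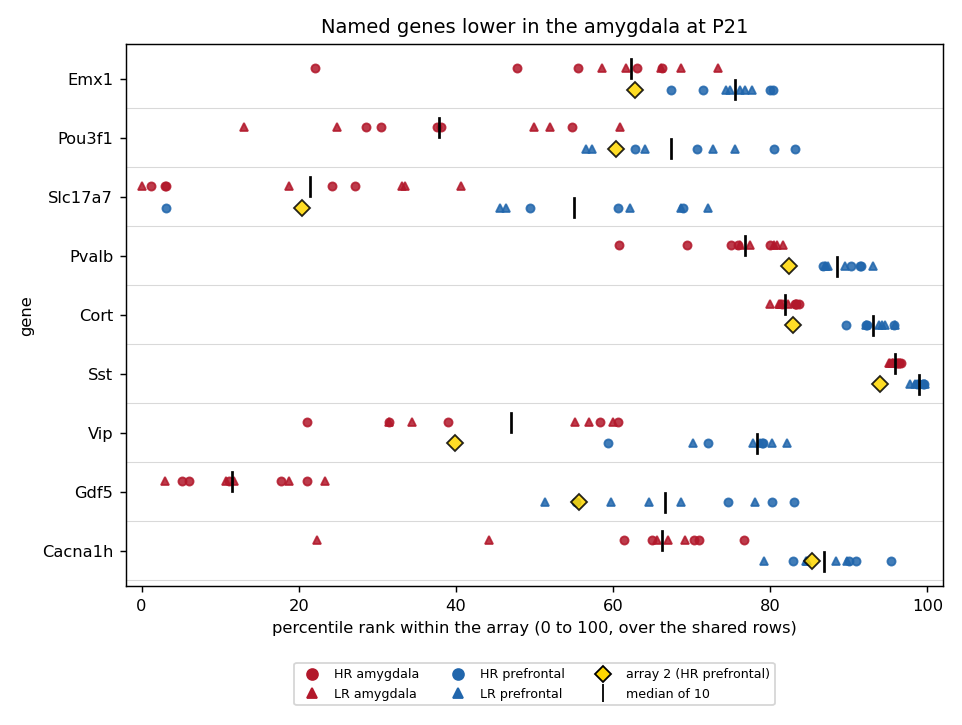
Percentile rank on each P21 array of 9 genes lower in the amygdala, with amygdala arrays in red above prefrontal arrays in blue, circles for HR, triangles for LR, a gold diamond for array 2 and a black tick for the median of 10. Pvalb, Gdf5 and Cacna1h do not overlap between regions, and array 2 is the lowest prefrontal array for Pvalb, Cort, Sst and Vip.

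Neuropeptide genes were called in both directions. Of 30 listed genes 27 were measured, and 8 were higher and 6 lower, which makes 14 of 27 against 17.2% of all rows, with 13 not called. Without array 2 the counts were 7 higher and 6 lower. Of the 27 genes 23 had a mean percentile of at least 50 in the higher region, a range in which 26.4% of genes were called. Pmch, the melanin-concentrating hormone precursor of lateral hypothalamic neurons, ranked at 19.6 to 89.3 (median 78.5) in the amygdala, against 4.83 to 55.8 (median 20.7) in the prefrontal cortex. The difference was 43.1 ± 6.32 percentile points (adjusted p = 0.000263). All 5 LR amygdala arrays ranked it higher than any HR amygdala array. Scg2, which encodes secretogranin II, a dense-core vesicle protein, differed by 35.3 ± 9.12 percentile points (adjusted p = 0.0137).

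Among receptors for peptides 4 of 15 measured genes were called, against 17.2% of all rows. Of 35 listed receptor genes 15 were measured, with 2 higher (Mc4r and Crhr1), 2 lower (Sstr4 and Mchr1) and 11 not called. Crhr1, the main receptor of corticotropin-releasing hormone, ranked at 5.38 to 54.9 (median 35.1) in the amygdala, against 1.21 to 21.9 (median 8.50) in the prefrontal cortex, so it was dim on most arrays. Its difference was 23.4 ± 5.00 percentile points (adjusted p = 0.00430). Mc4r, the melanocortin receptor of appetite circuits, differed by 27.5 ± 8.38 percentile points (adjusted p = 0.0316, and 0.0558 on the quantile-normalized log2 scale). Mchr1, the receptor of melanin-concentrating hormone, differed by -16.5 ± 5.20 percentile points (adjusted p = 0.0370, and 0.0566 without array 2).

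Lists for neighbouring regions were tested as a check on what the dissections held. Of 14 measured striatal genes 2 were higher (Meis2 and Penk) and 1 was lower (Rarb), against 8.57% and 8.66% of all rows. Meis2, a homeobox factor of striatal and other forebrain neurons, differed by 14.1 ± 3.93 percentile points (adjusted p = 0.0201), with 1.95 in HR arrays and 26.3 in LR arrays. Its call was lost on the quantile-normalized log2 scale (adjusted p = 0.102), among rows with a mean percentile of at least 50 (adjusted p = 0.204) and with all 60 arrays in the fit (adjusted p = 0.0541). The defining dopamine and adenosine receptor genes of striatal neurons, Drd2 (adjusted p = 0.272) and Adora2a (adjusted p = 0.0836), were not called. Rarb, a retinoic acid receptor, differed by -37.0 ± 5.59 percentile points (adjusted p = 0.000327), but its 2 other rows differed by 2.98 and -9.89 and were not called. Of 15 measured thalamus and hypothalamus markers 3 were higher (Pmch, Rora and Avp) and 2 lower (Otp and Zic1), against the same shares of all rows. Of 6 measured hippocampus markers 0 were called in limma, against 17.2% of all rows, and 0 had an unadjusted p under 0.05.

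Genes of the choroid plexus, the tissue in the ventricles that makes cerebrospinal fluid, were higher in the amygdala where they were called. Of 17 listed genes 7 were measured, and 3 of these were not called (Kl, Rarres2 and Kcne2). The other 4 were higher (Folr1, Kcnj13, Prr32 and Ttr), against 8.57% of all rows, and none was lower. Of the 7 genes 5 had a mean percentile of at least 50 in the higher region, a range in which 13.7% of genes were higher. Folr1, the folate receptor of choroid plexus epithelium, ranked at 82.3 to 90.0 (median 88.8) in the amygdala, against 0.278 to 78.0 (median 15) in the prefrontal cortex. The groups did not overlap, and the highest prefrontal value was that of array 2, with the next at 48.8. Its difference was 63.9 ± 7.77 percentile points (adjusted p = 7.24e-05), and 69.9 without array 2.

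Ttr, which encodes transthyretin, the main secreted protein of that epithelium, ranked at 99.9 or above on every amygdala array, against 60.8 to 99.9 (median 89.9) in the prefrontal cortex. Array 2 gave the highest prefrontal value again, and the next was 94.3. The quantile-normalized log2 difference in Ttr was 5.82 ± 0.71, with a rank difference of 15.5 ± 3.86 (adjusted p = 0.0109). Kcnj13, a potassium channel of the same epithelium, ranked at 55.8 to 77.5 (median 70.6) in the amygdala, against 0.0821 to 58.4 (median 33.1) in the prefrontal cortex. Its difference was 39 ± 6.24 percentile points (adjusted p = 0.000501). The mean level of the 7 genes was 66.6 to 75.4 in the amygdala arrays, against 38.4 to 62.4 in the prefrontal arrays, or 38.4 to 53.2 without array 2. The part of choroid plexus tissue in the other differences was not tested.

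Genes of meninges and fibroblasts were lower in the amygdala where they were called. Of 12 measured genes 5 were lower (Bgn, Col1a1, Col1a2, Ptgds and Mgp), against 8.66% of all rows, and none was higher, with a median difference of -7.62 percentile points. At an unadjusted p under 0.05 in limma, 8 were lower and 0 higher. Ptgds, prostaglandin D synthase of the leptomeninges, ranked at 91.8 to 95.2 (median 94.4) in the amygdala, against 96.4 to 99.6 (median 98.2) in the prefrontal cortex. The groups did not overlap, and the difference was -4.29 ± 0.699 percentile points (adjusted p = 0.000562), or -2.17 ± 0.17 on the quantile-normalized log2 scale. Igfbp2, an insulin-like growth factor binding protein named after its values were seen, ranked at 88.4 to 92.2 (median 89.3) in the amygdala, against 40.02 to 87.6 (median 85.8) in the prefrontal cortex. Its 10 amygdala values lay above the 10 prefrontal values, with a difference of 8.46 ± 4.51 percentile points that did not pass the test (adjusted p = 0.216). Col1a2, a fibrillar collagen chain, differed by -5.68 ± 1.02 percentile points (adjusted p = 0.00123). The mean level of the 12 genes was 42.2 to 52.2 in the amygdala arrays, against 47.5 to 61.1 in the prefrontal arrays. Of 10 measured endothelial and mural genes 1 was lower (Esam) and none higher, and of 10 blood cell genes 1 was lower and none higher, counts near the 8.66% of all rows. The part of meningeal tissue in the other differences was not tested.

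Of 17 measured myelin genes 1 was higher (Mog) and 1 lower (Sox10), against 17.2% of all rows in either direction. Without array 2 the myelin counts were 3 higher and 1 lower. Mog, a protein of the outer myelin sheath, differed by 19.6 ± 4.90 percentile points (adjusted p = 0.0111). Sox10, the transcription factor of the oligodendrocyte lineage, differed by -21.1 ± 5.04 percentile points (adjusted p = 0.00858). Of 20 measured astrocyte genes 2 were higher (Gjb6 and Acsbg1) and 1 lower (Sox9), or 3 higher and 2 lower without array 2.

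Of 14 measured microglia genes 3 were higher (Tmem119, Laptm5 and Ctss) and 3 lower (Cx3cr1, Tyrobp and Trem2), which makes 6 of 14 against 17.2% of all rows. A second row of Trem2 had the opposite sign, with 21.8 ± 8.77 percentile points, and was not called (adjusted p = 0.0974). Tmem119 and Cx3cr1 are both used to mark microglia. Tmem119 differed by 30.2 ± 5.57 percentile points (adjusted p = 0.00156), whereas Cx3cr1 differed by -28.6 ± 6.84 (adjusted p = 0.00851). The mean level of the 14 genes was 56.9 to 67.9 in the amygdala arrays, against 50.7 to 64.3 in the prefrontal arrays.

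**Figure D4:**
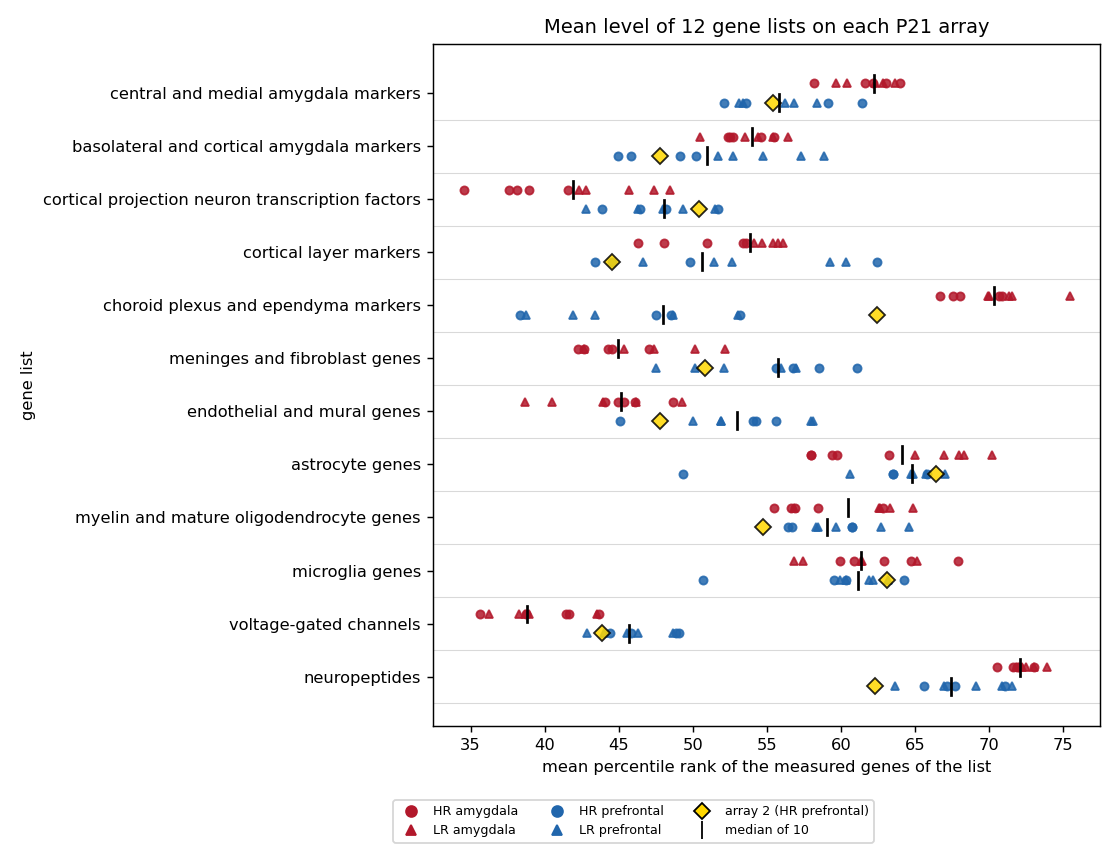
Mean percentile rank of the measured genes of 12 lists on each P21 array, with amygdala arrays in red above prefrontal arrays in blue, circles for HR, triangles for LR, a gold diamond for array 2 and a black tick for the median of 10. The choroid plexus list does not overlap between regions (66.6 to 75.4 in the amygdala arrays, 38.4 to 62.4 in the prefrontal arrays), and the astrocyte, myelin and microglia lists overlap.

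Among channel genes, most of them voltage-gated, 3 of 30 were called lower in the amygdala, near the 8.66% of all rows. Of 41 listed genes 30 were measured, with none higher, 3 lower (Cacna1h, Cacna1b and Kcnj6) and 27 not called, and their median difference was -6.41 percentile points. An unadjusted p under 0.05 was reached by 7 lower and 0 higher genes. Cacna1h, a T-type calcium channel, ranked at 22.4 to 76.7 (median 66.3) in the amygdala, against 79.2 to 95.4 (median 86.8) in the prefrontal cortex. The groups did not overlap, and the difference was -25.8 ± 4.79 percentile points (adjusted p = 0.00164). Cacna1b, the N-type calcium channel of presynaptic terminals, differed by -13.1 ± 2.47 percentile points (adjusted p = 0.00186).

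Of 16 measured genes of synaptic vesicles and release, 2 were higher (Vamp1 and Cplx2), 1 was lower (Slc17a7) and 13 were not called. Over all rows 8.57% were higher and 8.66% lower. Vamp1, a vesicle SNARE of fast synapses, ranked at 37.9 to 79.3 (median 68.4) in the amygdala, against 10.06 to 63.5 (median 21.4) in the prefrontal cortex. Its difference was 37.3 ± 5.44 percentile points (adjusted p = 0.000247). Of 12 measured perineuronal net and matrix genes 2 were higher and 2 lower, against the same shares of all rows. Acan, the proteoglycan core of nets, differed by 21.6 ± 4.34 percentile points (adjusted p = 0.00289), whereas Hapln1, the link protein that binds it to hyaluronan, differed by -11.3 ± 2.71 (adjusted p = 0.00884).

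Of 23 measured guidance and adhesion genes 1 was lower, Robo2, a receptor for Slit proteins, with a difference of -33.2 ± 6.15 percentile points (adjusted p = 0.00162). Of 13 glutamate receptor genes 2 were lower (Grik4 and Grin2c) and none higher. Of 5 measured GABA receptor genes 1 was lower (Gabrb2), and of 14 monoamine and acetylcholine receptor genes 1 was lower (Adra1d). Steroid and retinoid genes had 1 higher (Hsd11b1, which regenerates active glucocorticoid) and 1 lower (Rarb) of 15 measured. Immediate early genes had 1 higher (Fosl2) and 1 lower (Btg2) of 14. Of 15 measured olfactory bulb and neuroblast genes 2 were higher (Doc2g and Tubb3) and 2 lower (Robo2 and Cd24). Of 7 oligodendrocyte precursor genes 1 was lower (Neu4). The counts of these lists stand against 8.57% of all rows higher and 8.66% lower.

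In a list of metabolic genes 6 of 34 were called, near the 17.2% of all rows. Of 34 measured genes of the tricarboxylic acid cycle and glycolysis, 5 were higher (Idh3b, Fh, Pgam1, Pfkm and Sucla2), 1 was lower (Pdha1) and 28 were not called. Without array 2 the counts were 7 higher and 1 lower. Idh3b, a subunit of isocitrate dehydrogenase, ranked at 77.7 to 85.9 (median 80.7) in the amygdala, against 8.48 to 77.3 (median 72.4) in the prefrontal cortex, and the groups did not overlap. Its difference was 19.7 ± 6.16 percentile points (adjusted p = 0.0358). Of 40 oxidative phosphorylation genes 2 were higher and 1 lower, and of 58 ribosomal protein genes 2 were higher and 2 lower, with median differences of -0.0872 and -0.0300.

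A set was taken from genes with no overlap between regions and a mean percentile of at least 50 in the higher region. Its 12 genes with the widest gaps above the prefrontal cortex began with Folr1. The next was Helz, a zinc-finger RNA helicase, which ranked at 78.1 to 83.0 (median 81.5) in the amygdala, against 0.0126 to 59.3 (median 24.9) in the prefrontal cortex. The difference in Helz was 54.9 ± 4.63 percentile points (adjusted p = 2.43e-06). Rac2, a small GTPase of blood and immune cells, differed by 47.1 ± 6.08 percentile points (adjusted p = 9.78e-05). Gprasp2, a sorting protein for G protein-coupled receptors, ranked at 78.1 to 85.9 (median 82.7) in the amygdala, against 3.01 to 76.1 (median 44.7) in the prefrontal cortex, a difference of 41.8 ± 8.54 percentile points (adjusted p = 0.00322).

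Popdc2, a cAMP-binding membrane protein, ranked at 57.6 to 77.5 (median 66.7) in the amygdala, against 19.2 to 46.9 (median 31.2) in the prefrontal cortex. The remaining genes of this set, which differed by 32.8 to 48.9 percentile points, were Prxl2a, Mpv17, Spint2, Hacd3 and 3 olfactory receptor genes (Olr440, Olr1481 and Or11h6). Spint2, a serine protease inhibitor, had a second row that differed by 1.97 percentile points (adjusted p = 0.873).

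In the lower direction the set of 12 began with Gdf5, a secreted ligand of the bone morphogenetic protein family. It ranked at 3.01 to 23.4 (median 11.5) in the amygdala, against 51.3 to 83.0 (median 66.6) in the prefrontal cortex. The difference was -54.2 ± 4.31 percentile points (adjusted p = 1.73e-06). Sox9, a transcription factor of astrocytes and neural progenitors, ranked at 0.834 to 62.5 (median 43.6) in the amygdala, against 67.8 to 93.2 (median 82.9) in the prefrontal cortex, a difference of -46.3 ± 4.61 (adjusted p = 1.09e-05). Its second row differed by -11.3 ± 6.27 and did not pass the test (adjusted p = 0.236).

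Dll1, a Notch ligand, and Heyl, a target of Notch signalling, were both in the set, with differences of -34.7 ± 5.58 (adjusted p = 0.000517) and -34.2 ± 4.37 percentile points (adjusted p = 9.29e-05). Bbc3, which encodes the pro-apoptotic protein PUMA, ranked at 7.96 to 68.4 (median 60.4) in the amygdala, against 79.2 to 93.0 (median 85.5) in the prefrontal cortex. Trpv6, a calcium channel of epithelia, differed by -44.5 ± 5.95 percentile points (adjusted p = 0.000125). The remaining genes, Lcorl, Runx3, Golga2, Ccl19, Tmub2 and Sertad1, differed by -43.8 to -34.6 percentile points. All 24 genes of both sets kept their call without array 2. Their direction could not change, since the sets were picked for no overlap between the regions.

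The same contrast was computed at P7 and P14, from 10 and 10 other arrays at each age in the same tables. It called 1288 rows (8.14%) at P7 and 1050 (6.63%) at P14. Of the 2726 rows called at P21, 65.7% had the same sign at P7 and 91.6% at P14, against 57.5% and 70.3% of all rows. In the same direction, 334 were called at P7 and 601 at P14, and in the opposite direction 76 and 1. Of the 12 named genes that were higher at P21, 5 were called higher at P7 and 6 at P14. Of the 12 that were lower, 3 were called lower at P7 and 7 at P14.

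Nts, Penk, Pmch, Nr2f2, Folr1 and Ttr were called higher at all 3 ages. The difference in Nts was 51 percentile points at P7 and 60.2 at P14, and that in Penk was 10.7 and 9.47. Cort and Ptgds were called lower at all 3 ages, with differences in Cort of -20.3 at P7 and -14.3 at P14. Crh was called higher in the amygdala at P7 (20.2, adjusted p = 0.00355) and lower at P14 (-13.2, adjusted p = 0.0481) and P21. Sst also had opposite signs, with 2.59 percentile points at P7 (adjusted p = 0.0367). Gdf5 differed by -13.9 at P7 (adjusted p = 0.325) and by -32.4 at P14 (adjusted p = 0.00860). The change of a difference with age was not tested.

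**Figure D5:**
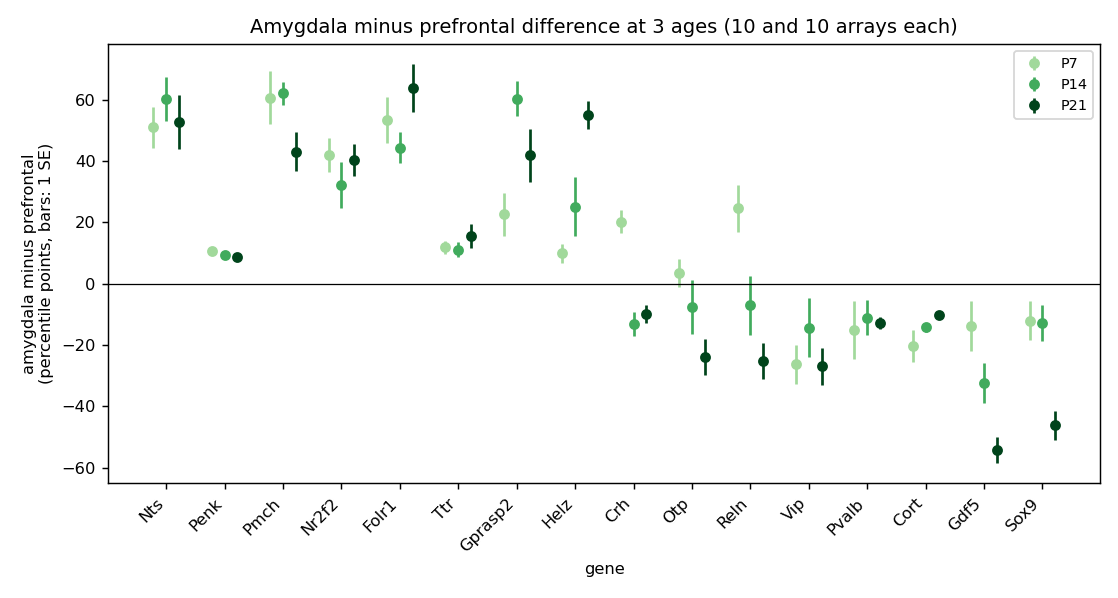
Amygdala minus prefrontal cortex in percentile points at P7, P14 and P21 for 16 named genes, from 10 amygdala and 10 prefrontal arrays at each age, with bars of 1 standard error; values above 0 are higher in the amygdala. Nts, Penk, Pmch, Nr2f2, Folr1 and Ttr lie above 0 at the 3 ages, and Crh lies above 0 at P7 and below 0 at P14 and P21.

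Whether the lines differed in one region more than in the other was tested by the HR minus LR difference in the amygdala minus that in the prefrontal cortex. Of the 15828 rows 1 passed (0.00632%), and 1486 (9.39%) had an unadjusted p under 0.05. The row was that of Isx, the intestine-specific homeobox gene, which was dim. It ranked at 6.17, 15, 24.6, 7.71 and 23.3 in the HR amygdala arrays, against 42.4, 51, 60.2, 51 and 44 in the LR amygdala arrays. In the prefrontal cortex it ranked at 62.4, 55.2, 31.1, 39.8 and 41.2 in the HR arrays, against 24.1, 15, 7.30, 25.2 and 12.5 in the LR arrays. HR lay below LR in the amygdala and above LR in the prefrontal cortex with no overlap in either region. The contrast was -63.5 percentile points (adjusted p = 0.00693). Isx lost its call with the sample code or the replicate block (adjusted p = 0.176) and with a variance trend and robust fit (adjusted p = 0.0650). With an assumed array run as a block the contrast of Isx was -56.2 percentile points. The run was taken as 12 consecutive array numbers, and the labels name no run. Arrays 37 to 40 then make up a run of their own. The LR amygdala level in that contrast rests on array 36 alone, so the setting cannot test the call. The number of rows that passed was 22 (0.139%) without array 2 and 51 without array 36, so this count rests on single arrays.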

How the data were processed

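Per the labels' protocols, double-stranded cDNA was hybridised to 1-colour arrays. The authors deposited 1 table of normalized intensity per region, and per the submitters' processing notes RMA (background correction, normalization between arrays and summary of probes) was used, with no version given. The series' value table held the same values in 12 of 12 groups. Transcript rows numbered 17519 for the amygdala (1046 empty lines were dropped) and 18564 for the prefrontal cortex. A control row there, left out of the fit, ranked at 2.51 to 13.1 at P21 (1 row). Median intensity per array was 66.3 to 78.4 in the amygdala and 83.1 to 88.4 in the prefrontal cortex. Genome build and probe design were not given in the sources used here.

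Percentile ranks over the 15828 shared rows were fitted with limma 3.58.1 in R 4.3.3, with a mean for each of the 4 groups, and p-values were adjusted by Benjamini-Hochberg over all rows (threshold 0.05). Log2 of the deposited intensity, quantile-normalized, was an alternative. Rows were named by gene ID (12082), accession (16) or the file's symbol (2989) through a RefSeq gene table (assembly GRCr8, names only), and 741 rows had no symbol. A gene with several rows was represented by its brightest row (820 genes of 14185). Named genes were the 12 with the largest differences in each direction among called genes with a symbol, a mean percentile of at least 50 in the higher region, the same sign in both lines and no overlap of the 10 and 10 arrays, plus up to 4 called genes per list and direction. Members of the amygdala and cortical lists, and a few genes near the threshold or with a known role, were named in addition after their values were seen. The 31 gene lists held 704 genes, of which 499 were measured; some genes are counted but not reported here. The genes, lists and tests were chosen with earlier results of these data known.

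In data simulated from these arrays (15828 rows, 10 simulations), the fit recovered 4% of bright rows changed by 0.5 on the log2 scale and 41.2% of those changed by 1. It recovered 87.0% of those changed by 2 and 95.0% of those changed by 3. False calls per simulation had a median of 4.5 and numbered at most 18. Each simulation changed 200 rows and shuffled the spread over all 20 arrays, whereas the fit of the data called 2726 rows. The shares recovered may therefore differ for the real contrast. All array columns of both tables were mapped, and their number limits the precision.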

Additional observations from a re-analysis of the deposited data

Results flagged for a closer look

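Among 87 of the genes named with values, 348 combinations of gene and group of 5 arrays were examined. An array was flagged if its gap to its neighbour took up most of the group's range, and 16 combinations stood out. Chance flags about 1 in 20 groups, which is near this rate. Values are percentile ranks.

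Array 36 (LR amygdala) was lowest for 4 genes: Bbc3 at 7.96 (other arrays 60.6 to 68.4), Fezf2 at 59.2 (78.0 to 81.6), Dlx2 at 25.1 (71.3 to 78.4) and Rora at 33.2 (58.7 to 66.7). Array 2 (HR prefrontal cortex) was highest for Gal at 97.8 (90.2 to 91.5) and lowest for Sst at 94.0 (98.7 to 99.6). Array 32 (HR amygdala) was highest for Zic1 at 17.9 (4.68 to 8.17) and C1ql3 at 97.1 (95.4 to 95.8), and lowest for Cort at 81.4 (83.1 to 83.6).

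The other HR amygdala arrays apart were array 31 for Crh at 79.3 (71.4 to 72.3), array 33 for Fh at 44.7 (55.6 to 59.2) and array 35 for Neurod6 at 82.8 (17.6 to 35.6). In the LR amygdala they were array 37 for Mog at 75.6 (78.4 to 79.5) and array 39 for Crh at 43.5 (64.2 to 71.5). In the prefrontal cortex they were array 1 for Acsbg1 at 64.6 (78.7 to 83.5) and array 10 for Lcorl at 49.9 (62.4 to 66.2).

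The HR minus LR difference in Isx differed between the amygdala and the prefrontal cortex by -63.5 percentile points (limma, adjusted p = 0.00693).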

How the results depend on the processing

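The number of rows that differed between the amygdala and the prefrontal cortex, 2726 (1356 higher, 1370 lower), was 4129 (2095 higher) with log2 intensity minus the array median. It was 500 (234 higher, 266 lower) in the HR arrays alone, 794 (412 and 382) in the HR arrays without array 2, 1432 (640 and 792) in the LR arrays alone and 317 (200 and 117) where the arrays did not overlap. These last settings use fewer arrays or a stricter call. Leaving out 1 array gave 2312 to 3176 rows (1125 to 1577 higher, 1187 to 1599 lower), with the most without array 2. Other settings stayed within 1.5 times, including 3409 without arrays 1 and 2, which was chosen after seeing the data. The own-table ranks moved the median of all rows to -0.625 percentile points. Sample codes and replicate numbers recur in both regions, and the labels do not say whether they mark the same animal. The correlations of same-numbered arrays' deviations were -0.0673 to 0.108, the highest for the code that arrays 2 and 32 share. They cannot decide whether such arrays come from the same animal, since the tissues differ. With the replicate block 1984 rows were called (949 higher, 1035 lower).

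The number of rows whose line difference differed between regions was 1 in the fit reported (Isx). It was 24 with log2 intensity minus the median, 15 with quantile-normalized log2 values and 16 among rows with a mean percentile of at least 50. It was 7 with array weights, 8 with the assumed array run as a block and 2 with the replicate block or the sample code block. Without arrays 1 and 2 it was 23, and with a variance trend and robust fit it was 0. That 0 came from limma, where 1486 rows had an unadjusted p under 0.05 in the fit without trend. Leaving out 1 array gave 1 to 51. Isx was not among the rows called with the replicate or sample code block.

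A list of 87 of the genes named with values was followed through the alternatives, with Isx taken for its line contrast. Mchr1 and Robo2 were not on this list. Of its 85 genes with a call, 74 kept it in every leave-one-out and 19 under every other alternative. The call was lost for 52 in the HR arrays alone, 34 in the LR arrays alone and 12 with the replicate or sample code block, among them Sst (adjusted p = 0.126), Fezf2 (0.0853), Crhbp (0.0568) and Idh3b (0.0614), and for at most 7 under each setting that kept all arrays and had no block. A sign turned for 2: Neurod2 in the LR arrays alone (6.62) and Meis2 in the HR arrays without array 2 (-1.70). The causes were not tested. Limits: 10 arrays per region, 1 table per region, no detection calls, and ranks near 0 for many genes, where order carries little. Region and array batch cannot be told apart.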

Other observations

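Receptor gene families were noticed after the values were seen. Of 213 measured olfactory receptor genes 33 were higher in the amygdala, 19 were lower and 161 were not called, against 8.57% and 8.66% of all rows. They were dim, with a median percentile of 29.995 among amygdala arrays and of 26.2 among prefrontal arrays. Of 21 vomeronasal receptor genes 4 were higher, none was lower and 17 were not called, with a median percentile of 24.5 among amygdala arrays and of 26.4 among prefrontal arrays.

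A further 3 peptide genes with high levels in both regions did not pass the test. Npy ranked at 99.1 to 99.4 in the amygdala, against 98.96 to 99.8 in the prefrontal cortex. Tac1 ranked at 87.6 to 91.0 in the amygdala, against 47.4 to 89.5 in the prefrontal cortex, with array 2 the lowest (adjusted p = 0.132, and 0.0520 without it). Cartpt ranked at 89.4 to 91.6 in the amygdala, against 82.1 to 92.5 in the prefrontal cortex.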
